A study of Mus musculus with 32 samples.

Results

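The comparison described here sets hematopoietic stem cells (HSCs) of 20-month-old mice against multipotent progenitor 1 cells (MPP1) of the same age. It rests on 4 of the 32 RNA-seq libraries of the study, chosen by their labels as the 2 libraries labelled aged HSC and the 2 labelled aged MPP1. All cells came from the bone marrow of female C57BL/6 mice that received no treatment. Both fractions were sorted as lineage-negative, Sca-1-positive and c-kit-positive cells that carried CD150 but neither CD48 nor Flt3, and that lacked the receptor written as IL-7 in the labels. They differed in the gate by CD34, which HSCs lacked and MPP1 carried. The same step between HSCs and MPP1 of 10-week-old mice, measured in 4 further libraries, is given beside it. Aged mice are called Aged and 10-week-old mice Young. The study pooled marrow by age and sorted it in duplicate and elsewhere calls its duplicates biological, so the p-values cover the spread between these samples, which may be technical.

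HSCs sit at the top of blood formation, divide rarely and can replace the whole hematopoietic system. MPP1 is the progenitor closest to them: it still gives rise to all blood lineages but enters the cell cycle more readily and maintains itself for a shorter time. In the mouse, loss of long-term stem cell activity goes along with gain of CD34 on the surface. In old marrow the HSC gate is known to fill with cells that repopulate poorly and lean toward platelets and myeloid cells.

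The aged HSC libraries held 11801882 and 14535569 gene counts and the aged MPP1 libraries 12985649 and 14544807, so that 3 counts corresponded to 0.206 to 0.254 CPM (counts scaled to a common library total). The young libraries held 11252143 to 14220196. In a principal component analysis of the 8 libraries the first component held 44.6% of the variance and separated HSCs from MPP1 at both ages, and the second held 23.8% and separated the ages. RNA of the gate antigens followed the labels in part. Cd48 (log2 fold change -2.98) and Flt3 (-2.03), gated out of both fractions, were lower in aged HSCs than in aged MPP1. Slamf1, whose product CD150 both fractions carried, was higher (1.95). Cd34, the antigen that set the gate and therefore no finding, had 188 and 191 CPM in aged HSCs and 723 and 744 CPM in aged MPP1. Kit, shared by both gates, had 1215 and 943 CPM in aged HSCs and 1040 and 1074 CPM in aged MPP1, and Ly6a, which encodes Sca-1, had 425 and 487 against 226 and 228 CPM. Il7r had at most 4 counts summed over each aged group. Of the HSC markers, Procr and Fgd5 were higher in aged HSCs, and Hlf and Ctnnal1 did not pass the test.

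At 20 months 3248 of 14154 genes tested differed between HSCs and MPP1 (edgeR quasi-likelihood test, adjusted p under 0.01, all 32 libraries sharing 1 estimate of the spread). Of these, 1481 genes (10.5%) were higher and 1767 genes (12.5%) lower in aged HSCs. Their median absolute log2 fold change was 0.688, and the median over all genes tested was 0.047. Which side held more calls depended on the method, with 1664 higher and 1632 lower under DESeq2 size factors and 2192 and 1984 by its Wald test. Both aged HSC libraries lay above both aged MPP1 libraries in 34.8% of the genes tested and below them in 31.1%. Since the cells were measured in bulk, more cells of a kind and more RNA per cell cannot be told apart in any of these values. Leaving out 1 library moved the total from 3248 to between 2026 and 3360, with 2026 without aged MPP1 replicate 2, 2070 without aged HSC replicate 2 and 2138 without aged MPP1 replicate 1. In a fit of the 4 aged libraries alone 1500 genes were called.

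Ramp2, whose product pairs with a receptor for the vasoactive peptide adrenomedullin, had the largest step toward aged HSCs among called genes that averaged 10 CPM or more in an aged group and whose groups did not overlap. It lies at chr11:101246028-101259546 on the forward strand of GRCm38 and is annotated as ENSMUSG00000001240.13. Its levels were 50.6 and 65.3 CPM in aged HSCs and 0.616 and 0.206 CPM in aged MPP1 (log2 fold change 7.17, SE 0.54, edgeR adjusted p = 6.94e-09). In young cells the step in Ramp2 was 4.18, and the step difference was not called. Cldn5, a tight junction protein best known from endothelium, had 36.3 and 44.7 CPM against 0.770 and 0.481 CPM (6.04). Gprc5c, a receptor used to mark dormant HSCs, had 22.2 and 23.8 CPM against 0.385 and 0.894 CPM (5.16). These genes were chosen among those whose groups did not overlap, so the gap between the groups is set by the choice. Chrm3, a muscarinic acetylcholine receptor, had 280 counts over both aged HSC libraries and 4 over both aged MPP1 libraries, a ratio of 73.2 with a 95% counting interval of 28.3 to 270.0. Gpr183, a receptor for oxysterols, had 37.0 and 31.1 CPM against 0.693 and 1.38 CPM (5.04). Its young levels lay between 0.444 and 1.33 CPM, but its step difference was not called. Gpx3, a secreted glutathione peroxidase, had 34.2 and 42.2 CPM against 1.69 and 2.13 CPM (4.34).

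The other genes among the 12 largest by this rule were Shisa9 (5.49), Tnfsfm13 (5.45), Sbspon (5.31), Gm8909 (4.69), the serine protease gene Htra3 (4.67) and Syt15 (4.37). Tnfsfm13 joins exons of neighboring genes and Gm8909 has close relatives, so the assignment of their reads is uncertain. The adjusted p of Syt15 passed 0.01 in no fit that left out an aged library, that of Gm8909 failed without either aged HSC library, and that of Tnfsfm13 failed without aged MPP1 replicate 1. The calls of the other 9 held in all 4 such fits.

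Transcription factors known for stem cell identity lay on the HSC side. Of 37 tested, 18 were higher and none lower in aged HSCs, beside 10.5% and 12.5% of all genes. The median log2 fold change was 0.63, beside 0.047 for all genes. Without either aged MPP1 library the count was 11. Mllt3, which maintains human and mouse HSCs, had 236 and 214 CPM in aged HSCs and 64.4 and 61.9 CPM in aged MPP1 (log2 fold change 1.86, SE 0.10, edgeR adjusted p = 6.23e-12). Mycn, a Myc family factor of immature cells, had 399 and 415 CPM against 142 and 147 CPM (1.53, SE 0.18). In both genes the stem cell libraries agreed closely and lay well above the progenitor libraries. Both were chosen as called members with a large step, so this gap is partly set by the choice. Hoxb5, a homeobox gene used as a reporter of long-term HSCs, had 19.6 and 26.3 CPM against 6.78 and 5.64 CPM (1.92), and the retinoic acid receptor gene Rarb had 27.96 and 27.3 CPM against 5.31 and 5.71 CPM (2.35). Rarb was not called without either aged MPP1 library.

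Mecom, required for HSC maintenance, differed less. It had 224 and 153 CPM in aged HSCs and 115 and 116 CPM in aged MPP1 (0.73, SE 0.15, edgeR adjusted p = 0.000687), and it was called only while aged HSC replicate 1 and both MPP1 libraries were in the fit. Gata2 had 526 and 586 CPM against 344 and 335 CPM (0.74) and was not called without aged HSC replicate 2 or either MPP1 library. Several factors held nearly the same level on both sides of the step. Hlf had 568 and 513 CPM against 454 and 450 CPM (0.29, edgeR adjusted p = 0.172), and Meis1 had 489 and 442 CPM against 401 and 407 CPM (0.23, adjusted p = 0.125). Prdm16 had 91.3 and 107 CPM against 57.9 and 56.0 CPM, with an edgeR adjusted p of 0.0101, just outside the threshold. In young cells 9 of the 37 factors were higher in HSCs and none lower, with a median of 0.35. The step difference was positive in 33 of 37 but passed its own test in none. Of all genes whose mean step over both ages passed and lay toward HSCs, 73.2% had the larger step at 20 months.

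**Figure D1:**
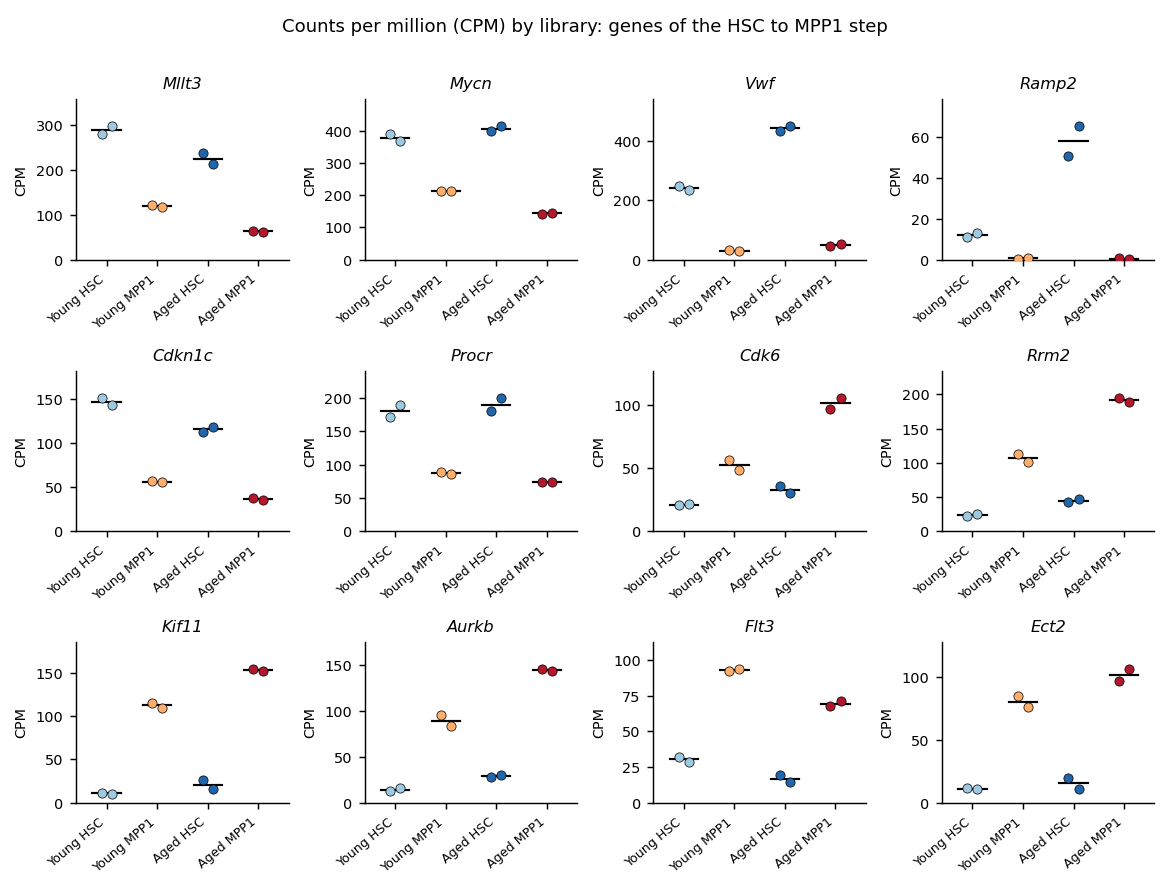
Levels in CPM (linear axis from 0) of 12 genes in each of the 8 HSC and MPP1 libraries. Points are libraries, 2 per group, and lines are group means; Mllt3, Mycn, Vwf, Ramp2, Cdkn1c and Procr lie higher in HSCs, and Cdk6, Rrm2, Kif11, Aurkb, Flt3 and Ect2 lie higher in MPP1, at both ages.

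Surface and reporter genes of HSCs pointed the same way. Of 39 tested, 20 were higher and 2 lower in aged HSCs, beside 10.5% and 12.5% of all genes, with a median of 0.77. In young cells 14 were higher and 2 lower, beside 5.67% and 9.1% of all genes, with a median of 0.50. Vwf, the gene of von Willebrand factor and a mark of platelet-biased HSCs, lies at chr6:125546774-125686679 and had 434 and 449 CPM in aged HSCs and 44.6 and 51.2 CPM in aged MPP1 (log2 fold change 3.24, SE 0.22, edgeR adjusted p = 1.71e-10). Sult1a1, a sulfotransferase, had 287 and 297 CPM against 28.9 and 30.3 CPM (3.33). Procr, which encodes the endothelial protein C receptor, had 180 and 201 CPM against 73.5 and 73.2 CPM (1.41). Slamf1, which encodes the CD150 antigen present on both gates, had 80.4 and 76.0 CPM against 20.6 and 20.7 CPM (1.95). None of these groups overlapped, and in 34.8% of all genes tested both aged HSC libraries lay above both aged MPP1 libraries. Vwf and Sult1a1 were chosen as called members with a large step. Ly6a had a log2 fold change of 1.04 with an edgeR adjusted p of 0.0898 in the fit of all 32 libraries, and it passed in the fit of the 8 HSC and MPP1 libraries. The genes lower in aged HSCs were Vldlr, a lipoprotein receptor (-1.30), and Cxcr4, the receptor for the niche chemokine CXCL12 (-0.81). That count was 1 without aged HSC replicate 2 or either aged MPP1 library.

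Genes known for their rise in old HSCs were mostly higher in aged HSCs than in aged MPP1. This list of 42 was drawn up with results of these libraries known and holds Selp and Clu, which the study itself singled out, so its direction is no independent evidence. In it 24 members were higher and 1 lower, with a median of 1.29, and at 10 weeks 15 were higher and 1 lower, with a median of 0.78. Clu, a secreted chaperone, had 207 and 245 CPM in aged HSCs and 21.02 and 19.5 CPM in aged MPP1 (3.52, SE 0.23, edgeR adjusted p = 1.15e-10). In young cells Clu had 27.8 and 27.0 against 3.09 and 2.66 CPM, so its step was nearly as large (3.28) at a lower level. Cyp26b1, which degrades retinoic acid, behaved alike, with 47.0 and 51.9 CPM against 4.70 and 4.40 CPM (3.47, and 3.30 in young cells). Osmr, the receptor for oncostatin M, had 173 counts over both aged HSC libraries and 2 over both aged MPP1 libraries, a ratio of 90.4 with a 95% counting interval of 24.7 to 753.0. Muc1, a membrane mucin, had a step of 3.37 in aged and 0.70 in young cells, a difference that did not pass the test. Mdga1 was the member lower in aged HSCs (-1.59).

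Of the 18 gene lists, those of S phase and G2M phase had the medians farthest from 0. All 43 S phase genes tested were lower in aged HSCs, with a median log2 fold change of -1.43, and their summed level was 3880 and 3550 CPM in aged HSCs against 9360 and 9430 CPM in aged MPP1. Of 54 G2M phase genes 51 were lower and none higher, with a median of -2.01, and their sum was 3360 and 3040 against 8340 and 8410 CPM. At 10 weeks 43 S phase and 50 G2M phase genes were lower in HSCs, with medians of -1.30 and -2.17. The shares of all genes that were lower in HSCs were 12.5% at 20 months and 9.1% at 10 weeks.

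The 12 genes with the largest fall, again among called genes of at least 10 CPM whose groups did not overlap, were Depdc1a (-3.10), Rtkn2 (-3.08), Cd48 (-2.98), Spag5 (-2.95), Kif11 (-2.88), Kntc1 (-2.84), Kif18b (-2.83), Kif4 (-2.80), Kif14 (-2.77), Bub1 (-2.75), Polq (-2.73) and Ect2 (-2.73). All 12 calls held in each of the 4 fits that left out an aged library. Most of these genes serve mitosis: Kif4, Kif11, Kif14 and Kif18b are spindle motors, Spag5 and Kntc1 act at the spindle and the kinetochore, Bub1 is a checkpoint kinase and Ect2 starts cytokinesis. Kif11 had 25.6 and 15.5 CPM in aged HSCs and 154 and 151 CPM in aged MPP1 (SE 0.14, edgeR adjusted p = 1.65e-12). Bub1 had 14.4 and 8.05 CPM against 79.5 and 72.3 CPM, and Aurkb, a kinase of chromosome segregation, had 28.3 and 29.7 CPM against 146 and 144 CPM (-2.29). The duplicates of aged MPP1 lay close together in these 3 genes, and those of aged HSCs differed more in Kif11 and Bub1 than in Aurkb. Cd48, whose product was gated out of both fractions, had 1.36 and 2.27 CPM in aged HSCs and 14.3 and 15.9 CPM in aged MPP1.

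Among S phase genes, the ribonucleotide reductase subunit Rrm2 had 42.9 and 46.8 CPM in aged HSCs and 195 and 189 CPM in aged MPP1 (-2.07, SE 0.08, edgeR adjusted p = 1.03e-13). The DNA helicase-like factor Hells had 24.6 and 18.4 CPM against 79.0 and 85.7 CPM (-1.92), and Cdc6, which loads the replicative helicase, had 22.4 and 23.3 CPM against 84.1 and 87.0 CPM (-1.87). Both libraries of each fraction agreed in these genes. The G2M phase members that did not pass were Hjurp (-1.28, edgeR adjusted p = 0.121), Gas2l3 (0.36, adjusted p = 0.504) and Ctcf (-0.34, adjusted p = 0.01461). Hjurp had 99.7 and 68.3 CPM in aged HSCs and 206 and 209 CPM in aged MPP1.

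Replication genes are commonly driven through E2F sites and mitotic genes through the CHR element and CCAAT boxes near their starts. The sequences below are the 250 bases before the RefSeq start on GRCm38.p6, written 5′ to 3′ on the coding strand, of the 2 S phase genes and the 2 G2M phase genes with the largest fall whose window held the searched letters, which stand in capitals. They show what these promoters look like and carry no measurement of binding. For Hells (chr19:38930740-38930989, forward strand) and Cdc6 (chr11:98907901-98908150, forward strand) the letters were TTTGGCGC, TTTCCCGC, TTTGCCGC or TTTCGCGC on either strand. For Kif11 (chr19:37376132-37376381, forward strand) and Ect2 (chr3:27153879-27154128, reverse strand) they were TTTGAA on either strand.
Hells: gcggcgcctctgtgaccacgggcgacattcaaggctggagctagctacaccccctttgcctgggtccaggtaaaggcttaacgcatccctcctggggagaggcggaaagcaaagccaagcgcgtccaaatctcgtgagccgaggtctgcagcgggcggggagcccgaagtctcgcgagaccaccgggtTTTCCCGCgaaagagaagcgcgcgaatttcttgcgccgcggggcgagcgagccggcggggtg
Cdc6: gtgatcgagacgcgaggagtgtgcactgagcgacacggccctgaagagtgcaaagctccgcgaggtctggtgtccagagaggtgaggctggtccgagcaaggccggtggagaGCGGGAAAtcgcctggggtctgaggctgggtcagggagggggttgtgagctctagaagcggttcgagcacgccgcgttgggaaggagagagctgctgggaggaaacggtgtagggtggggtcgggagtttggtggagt
Kif11: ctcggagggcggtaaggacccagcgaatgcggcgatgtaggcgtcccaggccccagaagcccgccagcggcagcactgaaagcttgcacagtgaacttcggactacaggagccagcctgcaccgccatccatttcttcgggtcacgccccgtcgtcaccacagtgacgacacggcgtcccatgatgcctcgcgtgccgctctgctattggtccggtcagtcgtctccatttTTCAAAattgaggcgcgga
Ect2: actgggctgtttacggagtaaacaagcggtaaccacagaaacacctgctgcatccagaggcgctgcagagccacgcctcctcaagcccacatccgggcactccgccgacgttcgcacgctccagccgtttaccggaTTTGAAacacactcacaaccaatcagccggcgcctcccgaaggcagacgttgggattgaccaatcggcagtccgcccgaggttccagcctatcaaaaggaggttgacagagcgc
The match began 62 bases before the start in Hells, 138 in Cdc6, 19 in Kif11 and 114 in Ect2. Of all 27025 genes with such a window, 1.91% held the E2F letters, 16.3% TTTGAA and 34.5% CCAAT, each counted on its own on either strand, and matches may overlap. Of the 48 G2M phase genes with a window, of 54 tested, 19 (39.6%) held TTTGAA and 37 (77.1%) held CCAAT. Only 31 of the 43 S phase genes tested, or 72.1%, had a window, so no share is given for them.

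Upstream of replication, 15 of 21 kinases, cyclins and factors of cell cycle entry were lower in aged HSCs and 2 were higher, with a median of -1.32, or -1.18 with genes lacking counts in a group set to their bound. In young cells the counts were 15 and 1, with a median of -0.71. Cdk6, the kinase whose level sets how fast HSCs leave quiescence, had 35.5 and 30.5 CPM in aged HSCs and 96.9 and 106 CPM in aged MPP1 (-1.59, SE 0.12, edgeR adjusted p = 7.33e-10). The transcription factors Foxm1 (-2.19), Mybl2 (-2.21) and E2f8 (-2.46) were lower by more than Cdk6. The genes on the other side were the D-type cyclins Ccnd1, with 45.9 and 48.9 against 27.7 and 24.5 CPM (0.89), and Ccnd2, with 328 and 362 against 237 and 236 CPM (0.58). Both were called only with aged HSC replicate 2 and both MPP1 libraries in the fit. Myc did not differ beyond its spread (-0.03, edgeR adjusted p = 0.950), with 399 and 441 CPM against 427 and 448 CPM.

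Of 23 inhibitors of the cycle, 5 were higher and 3 lower in aged HSCs, with a median of 0.14. Among all genes 10.5% were higher and 12.5% lower. Cdkn1c, which encodes the quiescence factor p57, had 113 and 119 CPM in aged HSCs and 37.7 and 35.6 CPM in aged MPP1 (1.69, SE 0.25, edgeR adjusted p = 2.09e-05). Btg2, an antiproliferative factor, had 562 and 589 CPM against 211 and 207 CPM (1.49). Cdkn1a, which encodes p21 and lies at chr17:29090976-29100727, had 48.9 and 55.8 CPM against 23.7 and 21.5 CPM (1.25). The other members higher in aged HSCs were Txnip (1.08) and Btg1 (0.63). Those lower in aged HSCs were Cdkn2c, the inhibitor p18 (-1.25), the pocket protein gene Rbl1 (-1.30) and E2f4 (-0.32).

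Growth and energy genes changed by little. Of 45 ribosome biogenesis factors, 19 were lower in aged HSCs and none higher, with a median of -0.27. The largest fall was that of Heatr1, a factor of ribosomal RNA transcription, which had 85.7 and 62.5 CPM in aged HSCs and 155 and 159 CPM in aged MPP1 (-1.06). Without aged HSC replicate 2 the count of lower genes was 11, and in the fit of the 4 aged libraries alone it was 3. Of 55 nuclear genes of oxidative phosphorylation, 2 were higher and 4 lower, beside 10.5% and 12.5% of all genes, with a median of 0.01. After correction for GC content and length the lower count was 16. The higher count was 8 without aged HSC replicate 1, 1 without aged MPP1 replicate 1 and 0 without either of the other 2 libraries. Cycs, the cytochrome c gene, was the most changed of them, with 125 and 126 CPM against 196 and 204 CPM (-0.64). At 10 weeks 3 of 34 glycolysis and hypoxia genes were higher and 2 lower in HSCs, with a median of 0.15. At 20 months 10 were higher and 4 lower, beside 10.5% and 12.5% of all genes, with a median of 0.13. The higher ones were 5 without aged MPP1 replicate 1 and 4 without aged MPP1 replicate 2. Among them were Ddit4, a stress-induced brake on mTORC1 (1.76), and Pdk2, which restrains entry of pyruvate into mitochondria (0.99), and among the lower ones the lactate transporter Slc16a1 (-0.66) and Pgk1 (-0.39).

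**Figure D2:**
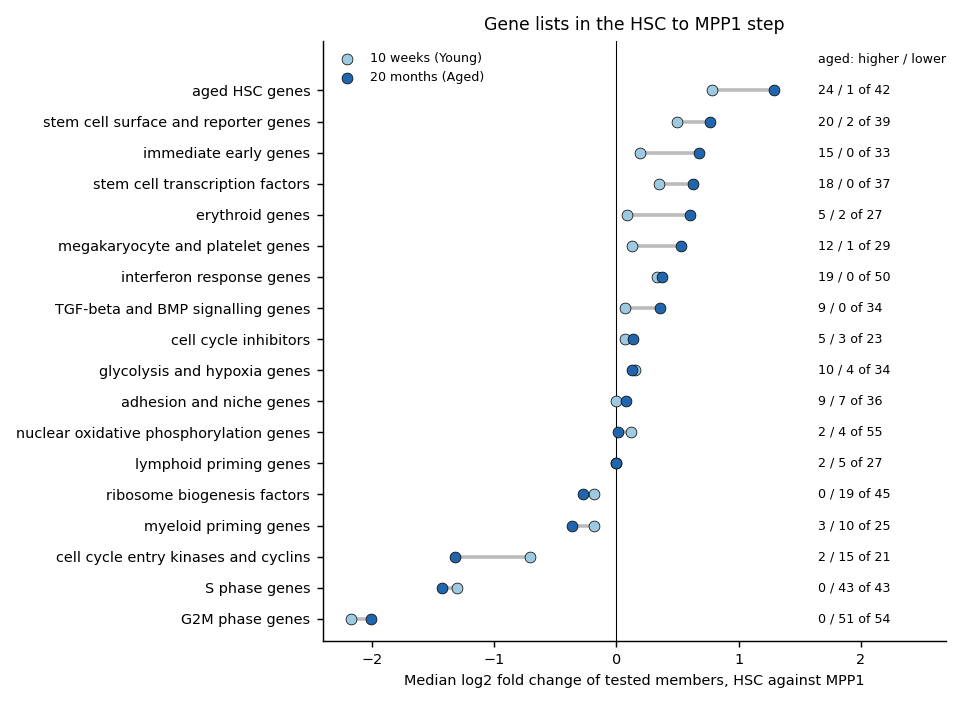
Median log2 fold change between HSCs and MPP1 over the tested members of 18 gene lists, at 10 weeks (light) and 20 months (dark), with the members higher and lower in aged HSCs counted at the right. The S phase and G2M phase lists lie farthest to the left at both ages, and the aged HSC genes farthest to the right.

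Among the called genes that prime myeloid fate, most lay on the MPP1 side at both ages. In young cells 7 of 25 were lower in HSCs and none higher, with a median of -0.18. The median difference between the steps, aged minus young, was -0.05, and none passed its own test. At 20 months 10 were lower and 3 higher in HSCs, beside 12.5% and 10.5% of all genes, with a median of -0.36. Without aged HSC replicate 1 or aged MPP1 replicate 2 the lower count was 6. Mpo, the myeloperoxidase gene, had 33.1 and 65.8 CPM in aged HSCs and 137 and 328 CPM in aged MPP1 (-2.18, SE 0.41, edgeR adjusted p = 0.000252). The groups did not overlap, but aged MPP1 replicate 2 had more than the other MPP1 library, and without it Mpo was not called (-1.48, edgeR adjusted p = 0.0119). Elane, the neutrophil elastase gene, had 4.83 and 10.7 CPM against 27.6 and 69.7 CPM (-2.58), and Ctsg (-1.94) and Ms4a3 (-1.94) lay on the same side. Ms4a3 was not called without aged HSC replicate 1 (-1.74), aged HSC replicate 2 (-2.19) or aged MPP1 replicate 2 (-1.55). In young cells Mpo had 65.0 and 69.2 against 95.8 and 88.6 CPM (-0.43) and Elane 19.6 and 17.8 against 19.03 and 18.4 CPM (0.03), and neither passed. The step difference was -1.75 for Mpo (edgeR adjusted p = 0.215) and -2.60 for Elane (adjusted p = 0.0661). Cebpa, a master factor of granulocytes, had 3.81 and 6.12 CPM against 8.93 and 10.2 CPM (-0.89) and was not called without aged HSC replicate 1 or aged MPP1 replicate 2. The members higher in aged HSCs were Prtn3 (0.95), Lyz2 (0.48) and Csf2ra (0.47). That count was 1 without aged HSC replicate 2 or either MPP1 library. Markers of mature neutrophils, whose summed level is given with the other cell types below, were higher in aged HSCs, and their part in these values was not tested.

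Of 27 lymphoid genes 5 were lower and 2 higher in aged HSCs, beside 12.5% lower and 10.5% higher among all genes. Their median was 0.00, or 0.09 with genes lacking counts in a group set to their bound. Flt3, the cytokine receptor gated out of both fractions, had 19.3 and 14.2 CPM in aged HSCs and 67.6 and 71.3 CPM in aged MPP1 (-2.03, SE 0.19). Dntt, the polymerase of antigen receptor joining, had no count in either aged HSC library and 30 over both aged MPP1 libraries, at least 9.57-fold lower with 3 counts over the group as the floor. Without aged HSC replicate 2 the lower count was 3. The higher members, Ets1 (0.68) and Bcl11a (0.44), were 1 without aged HSC replicate 1 or aged MPP1 replicate 1 and 0 without aged MPP1 replicate 2.

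Megakaryocyte and platelet genes lay on the HSC side. Of 29 tested, 12 were higher and 1 lower in aged HSCs, beside 10.5% and 12.5% of all genes, with a median of 0.53. In young cells the counts were 4 and 2, beside 5.67% and 9.1% of all genes, with a median of 0.13. The member lower in aged HSCs was the coagulation factor gene F5 (-1.40). Without either aged MPP1 library 6 were higher, and F5 was not called without aged HSC replicate 2 or aged MPP1 replicate 2. Beside Vwf, the list held Sdpr, a caveolar protein, with 157 and 123 CPM in aged HSCs and 25.0 and 23.0 CPM in aged MPP1 (2.57, SE 0.35, edgeR adjusted p = 5.50e-06). Thbs1, which encodes thrombospondin 1, had 66.5 and 56.3 CPM against 13.3 and 14.2 CPM (2.18), while its young libraries lay between 39.5 and 54.0 CPM on both sides. Its step difference of 2.11 had an edgeR adjusted p of 0.0150.

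Of 27 erythroid genes 5 were higher and 2 lower in aged HSCs, beside 10.5% and 12.5% of all genes, with a median of 0.60. The lower ones were Gata1, the master factor of red cells, with 4.999 and 4.89 CPM against 11.8 and 13.1 CPM (-1.30), and the transferrin receptor gene Tfrc (-1.23). The higher ones were Tspo2, Mt2, Blvrb, Nfe2 and Car2. Their count was 2 without aged MPP1 replicate 1 and 1 without aged HSC replicate 2 or aged MPP1 replicate 2. Globin counts moved between near-identical copies from library to library. Hba-a2, for example, had 157 CPM in aged MPP1 replicate 1 and 0.963 CPM in replicate 2, where Hba-a1 had 21.02 and 174 CPM. No direction is given for single globin genes.

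Immediate early genes respond within minutes to signals. Of 33 tested, 15 were higher and none lower in aged HSCs, beside 10.5% and 12.5% of all genes, with a median of 0.68. In the fit of the 4 aged libraries 2 were called lower. In young cells 6 were higher and none lower, with a median of 0.19. Egr1, which also restrains HSC division, had 4192 and 4680 CPM in aged HSCs and 1785 and 1715 CPM in aged MPP1 (1.38, SE 0.14, edgeR adjusted p = 6.28e-08). Nr4a2, an orphan nuclear receptor, had 31.9 and 34.3 CPM against 12.3 and 12.3 CPM (1.46). In young cells it had 17.9 and 20.5 against 25.6 and 20.1 CPM, but its step difference was not called. Egr3 (2.53), Ier2 (1.38), Junb (1.36) and Fosl2 (1.25) lay on the same side. Fos did not pass, with 5329 and 5565 CPM against 4576 and 4442 CPM (0.30, edgeR adjusted p = 0.323).

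Interferon response genes were higher in aged HSCs in 19 of 50 and lower in none, beside 10.5% and 12.5% of all genes. Their median was 0.37, and at 10 weeks 15 were higher, with a median of 0.33. The count was 10 without aged MPP1 replicate 2 and 5 in the fit of the 4 aged libraries, and 2 were lower without aged HSC replicate 1. Ifit1, an antiviral RNA-binding protein, had 43.3 and 36.5 CPM in aged HSCs and 20.5 and 19.1 CPM in aged MPP1 (1.04) and was not called without aged MPP1 replicate 2. Rtp4 (0.77), Samhd1 (0.84), B2m (0.54) and the class I gene H2-K1 (0.59) were higher too.

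Of 34 genes of TGF-beta and BMP signalling 9 were higher in aged HSCs and none lower, with a median of 0.36, and 5 were higher without either aged MPP1 library. They ran from ligands to targets. Bmp4 had 14.1 and 16.1 CPM in aged HSCs and 1.08 and 1.10 CPM in aged MPP1 (3.81), though it was not called without either MPP1 library. Inhba, the activin A subunit, had 75 counts over both aged HSC libraries and none in aged MPP1, at least 26.1-fold higher. Like Bmp4, it was not called without either MPP1 library. The targets Id1 (1.47), Id2 (1.46) and Smad7 (1.03) were higher as well. Of 36 adhesion and niche genes 9 were higher and 7 lower, beside 10.5% and 12.5% of all genes, with a median of 0.08. Jam2, a junctional adhesion molecule, had 96.8 and 91.2 CPM against 11.4 and 11.96 CPM (3.04, SE 0.23). On the other side lay the integrins Itga2 (-3.72), Itgal (-1.99), Itga4 (-0.63) and Itgb1 (-0.36). The lower count was 4 without aged HSC replicate 2 or aged MPP1 replicate 1 and 3 without aged MPP1 replicate 2.

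The step from HSCs to MPP1 was next set beside the same step at 10 weeks, where 2090 genes were called, 802 (5.67%) higher and 1288 (9.1%) lower in young HSCs. The ages share no library. Of the genes called, 1702 were called at both ages, which is 52.4% of the aged and 81.4% of the young calls, and 1699 of these had the same direction. A further 1546 were called in aged cells alone and 388 in young cells alone, but the step difference itself passed in 7 and 1 of these. The order of the counts depended on the fit. With only the 4 libraries of each age it turned, to 1500 genes at 20 months and 2485 at 10 weeks. The duplicates differed by a root mean square of 0.576 on the log2 scale in aged HSCs, 0.521 in young HSCs, 0.467 in aged MPP1 and 0.461 in young MPP1.

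Measured by size rather than by counts, the step was wider at 20 months. The root mean square log2 difference between HSCs and MPP1 was 0.805 in aged and 0.687 in young cells. Freed of the noise between duplicates, by multiplying differences between library pairs that share no library, it was 0.715 in aged cells, with 0.714 and 0.715 from the 2 ways of pairing the libraries, and 0.592 in young cells, with 0.599 and 0.586. The ratio was 1.21, and 1.11 when only the 8212 genes averaging 20 CPM or more were kept. The slope of the aged on the young step was 1.07, and the cosine between them 0.89 (Pearson r across genes 0.686, a description, since genes are not independent replicates). Of 4540 genes whose mean step over both ages passed, 3185 (70.2%) had the larger step at 20 months, by a median of 0.114 on the log2 scale. The share was 73.2% of the 2179 genes higher in HSCs and 67.3% of the 2361 genes lower in HSCs. These values carry no test. The median step difference over all genes was 0.022.

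**Figure D3:**
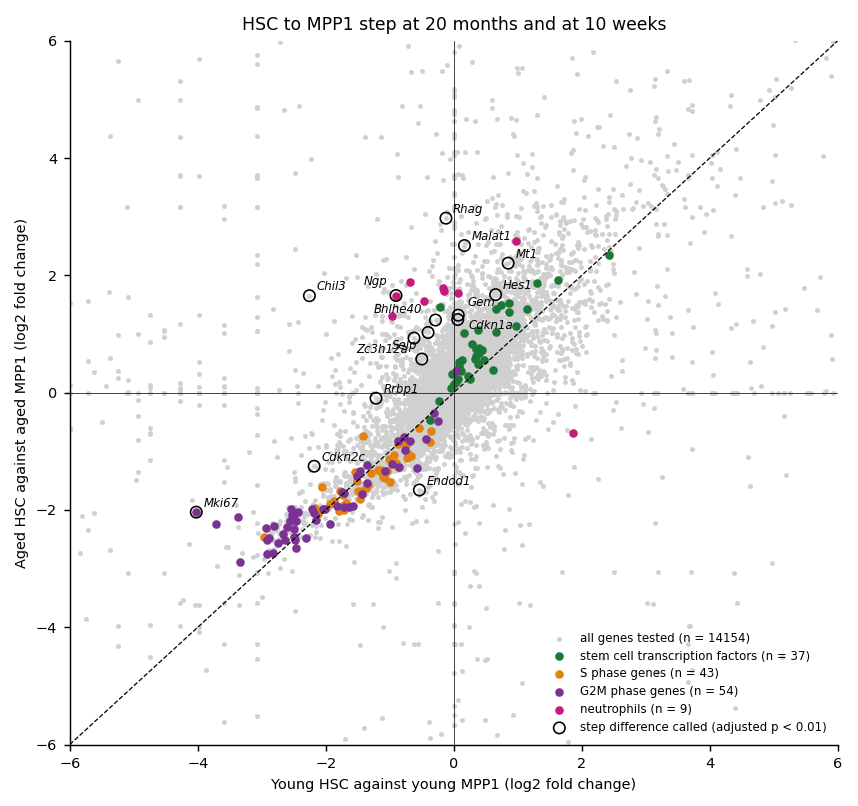
Log2 fold change of HSCs against MPP1 at 20 months (vertical) and at 10 weeks (horizontal) for the 14154 genes tested, with the line of equal steps dashed. Cell cycle lists lie mostly along the line on the lower left, stem cell transcription factors mostly above it on the upper right and most neutrophil markers above 0 on the vertical and near or below 0 on the horizontal axis; rings mark genes whose step difference passed, and 116 genes beyond 6 on either axis, Siglecg among them, are not drawn.

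Gene by gene, a difference between the steps was called for 17 of 14154 genes (0.12%), and 1358 genes (9.59%) had an unadjusted p under 0.05. In 15 of the 17 the step was shifted toward HSCs at 20 months and in 2 toward MPP1. A step counts as widened where this shift has the direction of the mean step and as narrowed where it has the other, which made 13 widened and 4 narrowed. The narrowed ones were Chil3, Mki67, Cdkn2c and Rrbp1. Chil3 and Zc3h12a were called at both ages in opposite directions, so that their step turned. Their mean steps (-0.30 and 0.15) did not pass. Where the young and aged steps lie on opposite sides of 0, as also in Selp, Ngp and Rhag, the class states only which was larger. Leaving out 1 library gave 4 to 45 genes, with 4 without young HSC replicate 2, 5 without aged MPP1 replicate 1, 6 without aged MPP1 replicate 2 or young MPP1 replicate 1, 10 without young HSC replicate 1 and 45 without aged HSC replicate 1. Malat1 and Chil3 were called in each of the 8 such fits, the other genes were not. Gem and Endod1 lost their call in 1 of them. Mki67, Mt1, Hes1, Rrbp1, Bhlhe40, Cdkn1a, Cdkn2c, Zc3h12a and Siglecg lost theirs in most of them.

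Malat1, a nuclear long noncoding RNA at chr19:5795690-5802672 on the reverse strand, had the smallest p among the widened steps. It had 1445 and 1071 CPM in aged HSCs and 225 and 225 CPM in aged MPP1 (log2 fold change 2.51, SE 0.13), and 392 and 378 against 361 and 337 CPM in young cells (0.17). Its step difference was 2.34 (edgeR adjusted p = 1.86e-07). The aged HSC libraries lay above and the aged MPP1 libraries below all 4 young libraries. Selp, which encodes P-selectin and lies at chr1:164115264-164150026, had 464 and 454 CPM in aged HSCs and 231 and 230 CPM in aged MPP1 (1.03), against 42.8 and 36.4 and then 50.7 and 55.6 CPM in young HSCs and young MPP1 (-0.40). Its step difference was 1.43 (edgeR adjusted p = 0.00148). Selp was thus high in both aged fractions, and the higher of them was the HSC fraction.

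Several other genes classed as widened are known for stress or signal response, a grouping that was not tested and leaves out Ngp, Rhag, Siglecg and Endod1. Cdkn1a had 37.0 and 37.1 CPM in young HSCs and 38.0 and 34.3 CPM in young MPP1, so its aged step had no young counterpart (difference 1.18, edgeR adjusted p = 0.00257). Mt1, a metallothionein, had 56.3 and 62.9 CPM in aged HSCs and 13.6 and 12.8 CPM in aged MPP1 (difference 1.36). Bhlhe40, a repressor of the clock and stress response, had 103 and 115 against 46.4 and 48.3 CPM (difference 1.52), and Zc3h12a, an RNase that limits inflammatory transcripts, had 29.4 and 29.0 against 16.3 and 15.1 CPM (difference 1.55). Endod1 was the widened gene on the MPP1 side that the naming rule chose, with 7.54 and 8.53 CPM in aged HSCs and 23.3 and 28.8 CPM in aged MPP1 (difference -1.12). Chosen after their values were seen were Gem, a small GTPase (difference 1.25), the Notch target Hes1 (1.02), Rhag (3.10), Siglecg and the narrowed Rrbp1 (1.12), whose step went from -1.21 in young to -0.09 in aged cells. Hes1 had 83.0 and 81.4 CPM in aged HSCs and 26.1 and 26.6 CPM in aged MPP1, against 127 and 133 CPM in young HSCs and 82.8 and 84.9 CPM in young MPP1. It was thus lower in both aged fractions, and its young step of 0.65 was called too. Siglecg, an inhibitory lectin receptor of lymphocytes, had no count in aged HSCs and 76 over both aged MPP1 libraries, at least 24.2-fold lower.

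The median fall was slightly larger at 20 months than at 10 weeks for S phase genes (-1.43 against -1.30). For G2M phase genes it was slightly smaller (-2.01 against -2.17). Among the 21 genes of cell cycle entry the median step difference was -0.21, positive in 6, and none passed. The median was -0.18 over 43 S phase genes, positive in 10, and 0.08 over 54 G2M phase genes, positive in 34. Of all genes whose mean step passed and lay toward MPP1, 67.3% had the larger step at 20 months, which is a negative difference. Of these 97 S phase and G2M phase genes 1 passed. That gene was Mki67, which encodes the proliferation antigen Ki-67 and lies at chr7:135689784-135716361. It had 44.8 and 35.9 CPM in aged HSCs and 181 and 157 CPM in aged MPP1 (-2.04), against 7.38 and 7.45 and then 148 and 98.2 CPM in young cells (-4.02), so its step narrowed by 1.99 (edgeR adjusted p = 0.00529). Cdkn2c narrowed by 0.93, from -2.18 to -1.25, with 29.1 and 28.8 CPM in aged and 8.89 and 6.96 CPM in young HSCs. Neither call was made in the fit of the 8 HSC and MPP1 libraries.

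**Figure D4:**
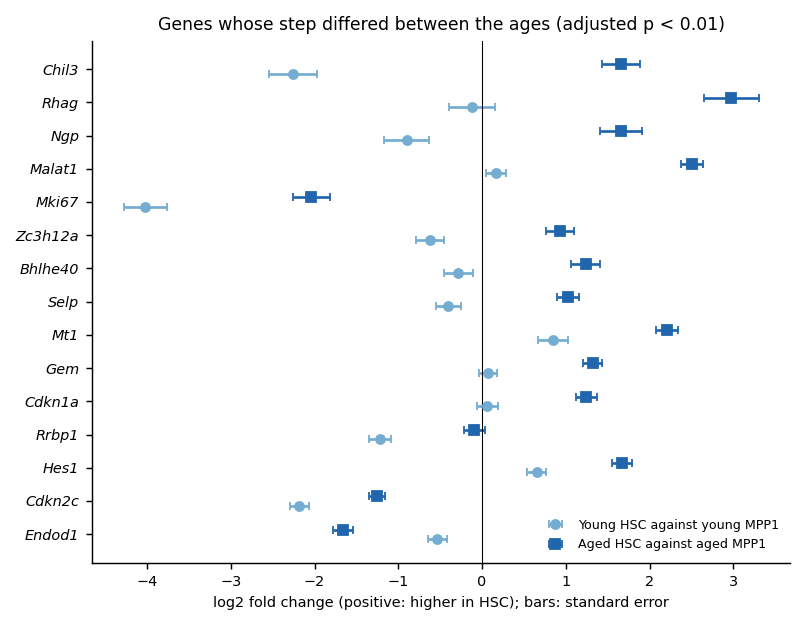
Log2 fold change of HSCs against MPP1 with its standard error in aged (squares) and young (circles) cells for 15 of the 17 genes whose step difference passed. Siglecg, without a count in aged HSCs, is among those left out; in Chil3, Ngp, Rhag, Zc3h12a, Bhlhe40 and Selp the aged and young values lie on opposite sides of 0.

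Markers of mature cells outside the gates were checked in every library. Of 9 neutrophil markers 7 were higher in aged HSCs than in aged MPP1 and none lower, with a median of 1.71, and none passed in young cells. Their summed level was 322 and 346 CPM in aged HSCs, 95.8 and 116 CPM in aged MPP1 and 67.2 to 112 CPM in the 4 young libraries. S100a8, a subunit of calprotectin, had 61.3 and 63.4 CPM against 19.5 and 19.6 CPM (1.71, SE 0.31), and Camp, a granule peptide, 33.4 and 41.3 against 9.24 and 11.4 CPM (1.89). Both aged HSC libraries were high in these genes. Of the step difference genes, Ngp, a neutrophil granule protein, had 94.9 and 96.5 CPM against 25.95 and 36.03 CPM, and Chil3, a chitinase-like protein of neutrophils and macrophages, 22.7 and 21.3 against 6.32 and 7.91 CPM. Their step differences were 2.56 and 3.91. The part of mature neutrophil RNA in these differences and in the myeloid priming genes was not tested. Ltf (1.56) and Retnlg (2.59) were called only with aged HSC replicate 2 and both MPP1 libraries in the fit.

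**Figure D5:**
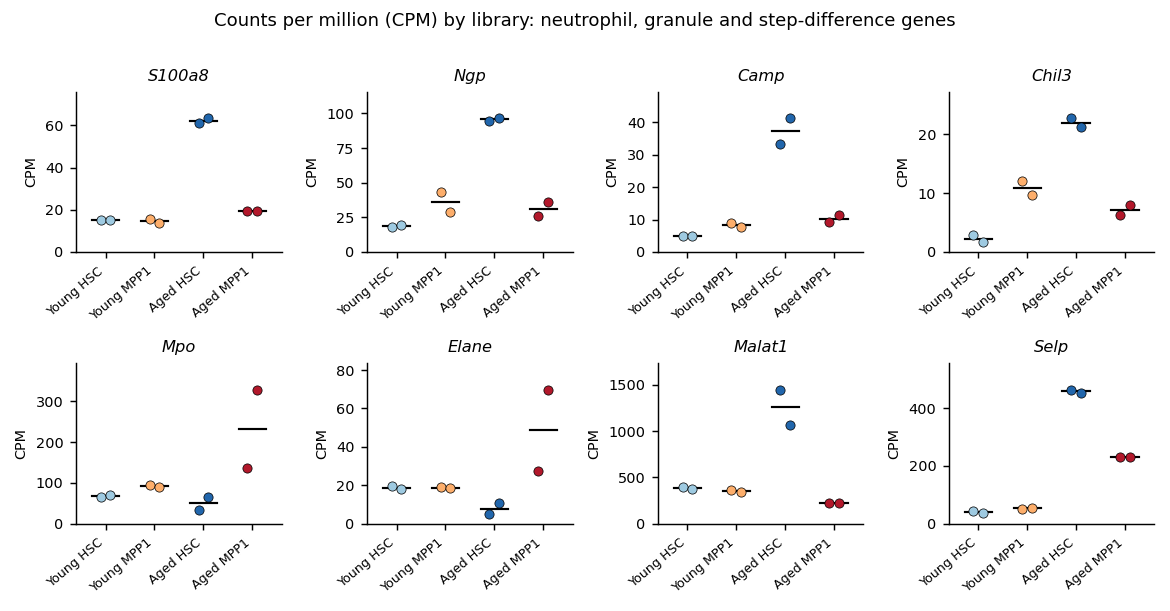
Levels in CPM (linear axis from 0) of 8 genes in each of the 8 HSC and MPP1 libraries, with points for libraries and lines for group means. S100a8, Ngp, Camp and Chil3 were highest in aged HSCs, Mpo and Elane highest in aged MPP1 with a gap between its 2 libraries, Malat1 was high in aged HSCs alone and Selp high in both aged fractions.

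The basophil proteases Prss34 and Mcpt8 had 245 and 57 counts over both aged HSC libraries and 0 and 2 over both aged MPP1 libraries, whereas the mast cell proteases Cma1 and Tpsb2 were at 0. Cpa3, a protease of mast cells and their progenitors, was lower in aged HSCs, with 3.05 and 2.27 CPM against 5.85 and 5.43 CPM (-1.06), and the other 3 of the 8 markers did not pass. The list summed to 11.2 and 18.7 CPM in aged HSCs and 7.78 and 7.01 CPM in aged MPP1. Prss34 had 5.34 and 12.5 CPM in the aged HSC libraries and no count in any of the 4 young libraries. Red cell markers summed to 601 and 891 CPM in aged HSCs, 189 and 188 CPM in aged MPP1 and 405 to 797 CPM in young libraries, and none of 7 passed. Rhag, a red cell membrane protein and a step difference gene, had 8.64 and 8.74 CPM in aged HSCs and 0.616 and 1.58 CPM in aged MPP1. The B cell genes Pax5, Ebf1 and Ms4a1 and the T and NK cell genes Cd3e, Cd3d, Ncr1 and Gzma had no count in any of the 8 libraries. The 8 B lineage markers together nevertheless summed to 691 and 860 CPM in aged HSCs, 470 and 489 CPM in aged MPP1, 434 and 448 CPM in young HSCs and 173 and 188 CPM in young MPP1. Nearly all of it came from Cd74, the class II invariant chain also made by other cells, with 644 and 810 against 431 and 451 CPM (0.76, edgeR adjusted p = 0.0256), and from Cd79b, with 46.5 and 49.6 against 39.5 and 37.4 CPM (0.36, adjusted p = 0.0973). None of the 8 passed at 20 months. Klrb1c, the NK receptor NK1.1, had 73.6 and 75.1 CPM in aged HSCs against 3.70 and 4.47 CPM in aged MPP1 (4.21). All 9 T and NK cell markers together summed to 76.0 and 76.7 against 5.47 and 6.94 CPM. Of 7 endothelial markers Kdr alone passed (2.95), while Cdh5 had no count in aged HSCs, and of 7 stromal markers Pdgfrb alone passed, lower in aged HSCs (-1.14). Of 9 macrophage markers Axl (0.81) and Mertk (5.17) passed, and Mertk was called only with aged HSC replicate 1 and both MPP1 libraries in the fit. The part of RNA from such cells in the results above was not tested.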

How the data were processed

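Total RNA of sorted cells was amplified with a SMARTer Ultra Low Input kit and sequenced as single reads. Per the labels and the study's methods, the authors aligned reads with TopHat2 2.0.13 and Bowtie2 2.1.0 to mm10 and took gene counts with StringTie. The deposited raw counts of 24421 genes were used as given, and no use of strand was stated, so overlapping, antisense and near-identical genes are uncertain. PCR copies were counted as reads, so intervals and floors cover counting error only. The deposited normalized table and 8 tables of the authors' own comparisons of Aged with Young cells (fold changes and p-values) were not used. Of the gene names, 27 had been turned into dates (0.1875% of counts) and were never named. A few other genes are not reported here.

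Counts were fitted in edgeR 4.0.16 (R 4.3.3) with TMM factors (0.807 to 1.11), filterByExpr (14154 genes kept), 1 mean for each of 16 groups over 32 libraries and quasi-likelihood F-tests, two-sided, with Benjamini-Hochberg adjustment within each contrast and a threshold of 0.01. The common dispersion was 0.0127 with 4.93 prior and 16 residual degrees of freedom. The contrasts were the aged step (aged HSC minus aged MPP1), the young step and their difference. Step sizes used log2 CPM with a prior count of 2. The script was tested on simulated data. Named genes were the 12 largest and 12 smallest log2 fold changes among called genes with at least 10 CPM in a group and no overlap, up to 8 step differences in each direction, up to 4 called and 2 other members of each list and a fixed set of core genes. Chosen outside this rule, after their values were seen, were Fgd5 and Ctnnal1 as markers of the gate, Hells and Cdc6 for their promoters, and B2m, Bcl11a, Blvrb, Btg1, Car2, Csf2ra, Ctcf, Ctsg, Cxcr4, E2f4, F5, Fosl2, H2-K1, Id2, Ier2, Itga4, Itgb1, Junb, Lyz2, Mdga1, Muc1, Nfe2, Pgk1, Prtn3, Slc16a1, Smad7, Txnip and Vldlr as further list members, besides the step difference genes so marked in the text. The comparison, its lists and its genes were chosen with earlier results of these data known. Replicate numbers were checked for pairing: deviations of same-numbered libraries correlated at -0.00584 in aged and 0.064 in young cells. Positions are from GENCODE M21 (GRCm38), where 23358 symbols matched directly and 659 through older symbols, and promoter sequences from RefSeq.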

Additional observations from a re-analysis of the deposited data

Results flagged for a closer look

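The steps from HSC to MPP1 at 20 months and at 10 weeks were found to differ in 17 genes by the test of the difference itself (edgeR quasi-likelihood interaction, adjusted p under 0.01). On the log2 scale, as aged minus young step, the differences toward HSCs included 3.91 for Chil3, 3.10 for Rhag, 2.56 for Ngp, 2.34 for Malat1, 1.99 for Mki67, 1.55 for Zc3h12a, 1.52 for Bhlhe40, 1.43 for Selp, 1.36 for Mt1, 1.25 for Gem, 1.18 for Cdkn1a, 1.12 for Rrbp1, 1.02 for Hes1 and 0.93 for Cdkn2c. Those toward MPP1 were -1.12 for Endod1 and -6.26 for Siglecg. The value for Siglecg was fitted with no count in aged HSCs, depends on the prior count and is no bound. Malat1 and Chil3 were called whichever of the 8 libraries was left out, and the others lost their call in at least 1 such fit. Mki67, Mt1, Hes1, Rrbp1, Bhlhe40, Cdkn1a, Cdkn2c, Zc3h12a and Siglecg lost it in most of them.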

How the results depend on the processing

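Replicate numbers were not shown to pair the samples. With a replicate block the aged step gave 2997 calls, the young step 1964 and the step difference 13. Fitting only the 4 libraries of an age gave 1500 calls for the aged step, 751 higher and 749 lower in HSCs. Keeping only genes that changed by 1 or more on the log2 scale left 997 (492 and 505) for the aged step, 594 (169 and 425) for the young step and 977 for the mean step. At an adjusted p of 0.05 there were 2416 higher genes in the aged step, 3440 calls (1533 higher) in the young step and 66 step differences (52 widened, 14 narrowed). DESeq2's Wald test gave 1416 higher genes in the young step and 143 step differences (116 widened, 27 narrowed), and correction for GC content and length gave 41 (33 and 8). The 8 HSC and MPP1 libraries alone gave 2 narrowed genes. Leaving out 1 library, where the lone library of its group is assumed to vary like the others, gave 2026 to 3360 calls for the aged step, 614 to 1541 of them higher. The lowest was without aged MPP1 replicate 2, with 672 higher without aged MPP1 replicate 1 and 881 without aged HSC replicate 2. For the young step it gave 1035 (without young HSC replicate 2) to 1553, with 1066 without young MPP1 replicate 1 and 1346 without young MPP1 replicate 2, and 271 to 575 higher and 755 to 978 lower. For the step difference it gave 4 to 45, 3 to 41 widened and 1 to 5 narrowed. The step size was 0.806 in aged and 0.676 in young cells with a prior count of 0.5 (ratio 1.19) and 0.530 and 0.478 over genes of at least 20 CPM (ratio 1.11), and could not be computed with a library left out. No called gene chosen by the naming rule changed sign under these settings, but the order of the aged and young counts turned with the 4 libraries of each age (1500 against 2485), and higher calls outnumbered lower ones in the aged step there, with DESeq2 size factors (1664 against 1632) and by the Wald test (2192 against 1984). With 2 libraries a group, differences of genes near the floor of 3 counts were not resolvable. The cause of these changes was not tested.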
